A study of Oryctolagus cuniculus with 9 samples.

Results

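The p53 targets and the apoptosis machinery were followed in primary rabbit parathyroid cells, in culture, as a set of 37 listed genes. A gene was taken as the row of the expression table whose gene name equals its symbol, and 34 of the 37 were found among 19511 loci. The list holds 16 pro-apoptotic genes (13 found), 6 anti-apoptotic genes (all found) and 15 other p53 targets (all found). TNFRSF10B and PMAIP1 matched no row name and are not analysed here, and APAF1 was met only in a locus with a joined name, APAF1;LOC100351148, which is given apart.

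There were 3 groups of 3 libraries each. In the GA+H/R group, gallic acid (a polyphenol of plants) was given at 1200 µM over 24 h, followed by hypoxia for 6 h and reoxygenation for 6 h, which stand in culture for ischaemia and reperfusion. H/R cells went through the same hypoxia and reoxygenation with no gallic acid, and control cells were untreated and carry the label day 0. The labels call the control cells wild type, give no age or sex, do not say whether the H/R cells were held for 24 h before hypoxia, and leave unsaid whether separate animals or cultures gave the libraries. Each p-value therefore measures only the spread between these libraries, which may be technical.

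The transcription factor p53 is stabilised by DNA damage and other stress and induces genes that stop the cell cycle (CDKN1A, GADD45A, BTG2, PLK2), repair DNA (XPC, DDB2, RRM2B), limit p53 itself (MDM2) or promote death (BAX, BBC3, FAS). Death by the mitochondrial route depends on BAX and BAK1, which open the outer mitochondrial membrane, are held back by BCL2, BCL2L1 and MCL1, and are released by BH3-only proteins such as BBC3, BID, BAD and BCL2L11. Cytochrome c then assembles APAF1 and caspase 9, the receptor route acts through FAS, FADD and caspase 8, and XIAP, BIRC2 and BIRC3 restrain caspases or the signalling around them until DIABLO displaces them.

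The unit is FPKM, fragments normalized for the length of the transcript and for the size of the library. Their sum was 467499 to 516231 in the GA+H/R libraries, 730117 to 752065 in the H/R libraries and 1648012 to 1696488 in the controls, and the median log2 change of all loci was -0.50 for GA+H/R minus H/R, -1.25 for H/R minus control and -1.77 for GA+H/R minus control. Each library was therefore divided by the median ratio of its loci to the mean library, and levels are given as this rescaled FPKM. The words rose, fell, higher and lower refer to it, that is, to the median locus, and where the deposited scale gives another direction its value stands beside the change or among the processing alternatives at the end. With libraries scaled to equal sums of FPKM instead, the median locus was at -0.07 for GA+H/R minus H/R, -0.24 for H/R minus control and -0.37 for GA+H/R minus control. Log2 changes are on log2(rescaled FPKM + 1), which understates the change of low genes, and are given ± SE with a p-value adjusted over 10956 loci, called under 0.05. The read depth is unknown, since the table holds no counts. Defining parathyroid genes were at or near 0, with PTH at 0.0407, 0.0358 and 0.0663 rescaled FPKM on average in GA+H/R, H/R and control, while the fibroblast collagen gene COL1A2 averaged 9853, 19747 and 61185. Control 1 was less like controls 2 and 3 (r = 0.985 and 0.983 across loci) than those were like each other (0.997), while the GA+H/R libraries correlated with one another at 0.985 and the H/R libraries at 0.992.

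Of the 34 genes, 30 passed the filter of at least 1 rescaled FPKM in at least 3 libraries, each of them in all 9 libraries. The other 4 were not tested. TP53I3, a quinone oxidoreductase, averaged 0.188, 0.102 and 0.0674 rescaled FPKM in GA+H/R, H/R and control, and BID, a BH3-only protein that links death receptors to mitochondria, 0.272, 0.342 and 0.101. CASP8, the initiator caspase of death receptors, averaged 0.412, 0.552 and 0.870, and BCL2L11 (BIM), a BH3-only protein, 0.829, 0.948 and 1.19. In the authors' deposited table, 32 of the 34 genes were marked significant in a single test across the 3 groups, beside 10917 of 19511 loci. Of those loci only 10956 passed the filter used here, so the shares are not compared.

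The H/R libraries were first set against control. The controls carry the label day 0, so hypoxia with reoxygenation and time in culture cannot be told apart in this comparison. Several genes of cell cycle arrest and of mitochondrial death rose relative to the median locus, all but BAD (0.19) being negative on the deposited scale, among them CDKN1A, PHLDA3, PLK2, GADD45A, BAX, BAK1, BAD and DIABLO. Other p53 targets fell, among them ZMAT3, TP53INP1, RRM2B, SESN1 and MDM2, as did the death receptor FAS. Of the 6 anti-apoptotic genes 5 fell, led by XIAP and BIRC2, and BCL2L1 rose, with -0.59 on the deposited scale. Of the 30 genes 24 were called, where 57.6% of all loci were, with 11 higher and 13 lower against 29.2% and 28.4% of all loci tested, and their median log2 change was 0.13, against 0.00 for all loci. The H/R and control libraries did not overlap for 12 genes that were higher in H/R and 13 that were lower, as for 34.1% and 33.0% of all loci. On the deposited scale 0 of the 30 were called higher and 28 lower, where 4.18% and 86.0% of all loci were.

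**Figure D1:**
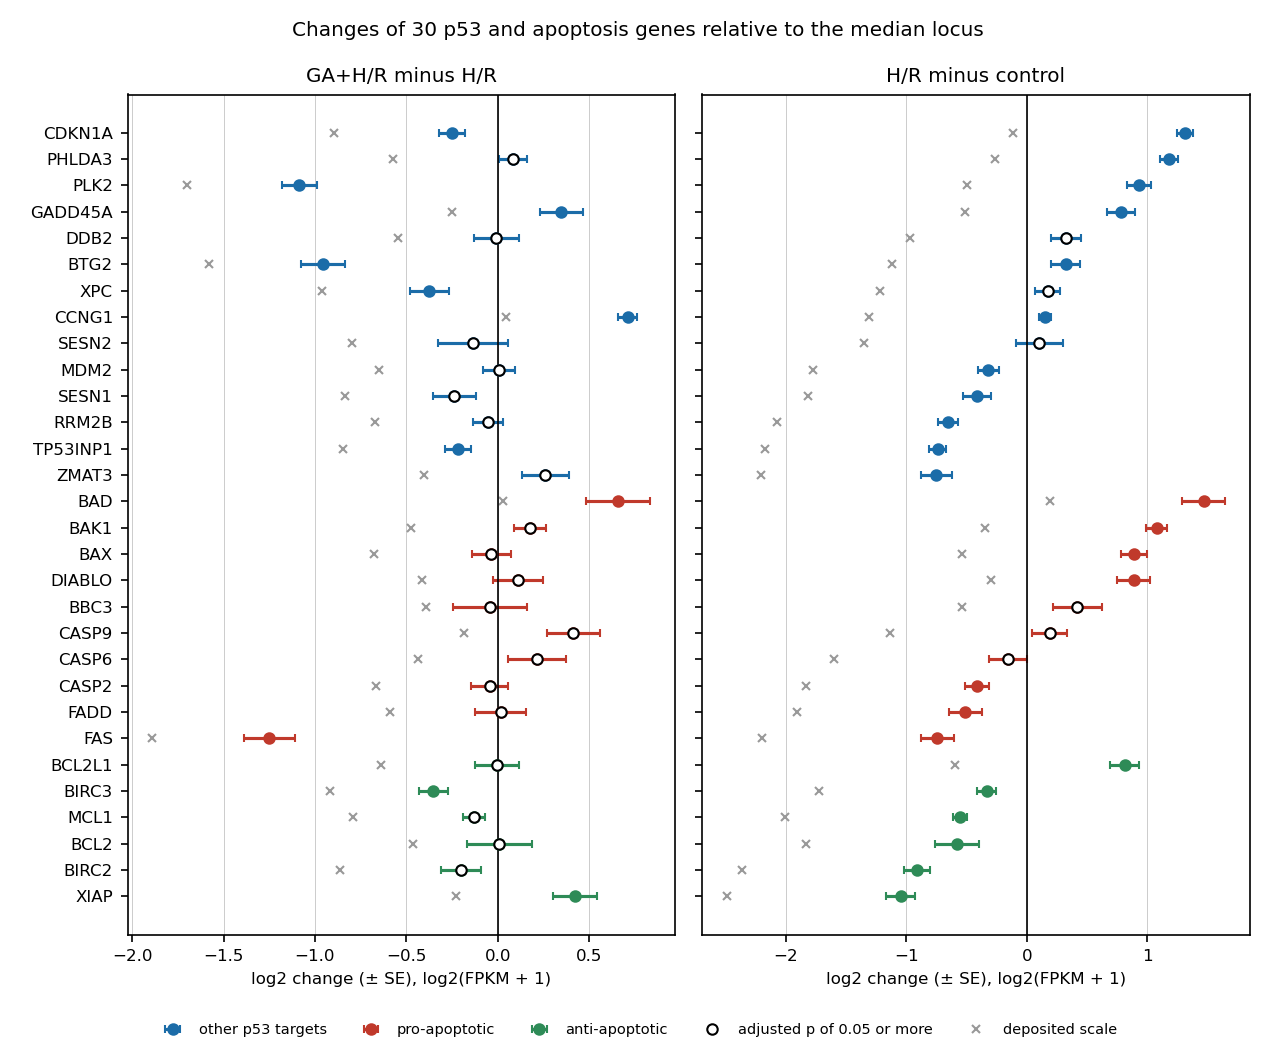
Log2 change ± SE of each of the 30 tested genes (rows) in GA+H/R minus H/R (left) and H/R minus control (right), on log2(FPKM + 1). Coloured points are relative to the median locus, open points had an adjusted p of 0.05 or more, and grey crosses are the changes on the deposited scale, which lie to the left of every point.

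Among genes of cell cycle arrest, all 4 were called higher in H/R against control relative to the median locus, as were 29.2% of all loci. On the deposited scale all 4 were at negative values, and the call of BTG2 was not stable. CDKN1A, the p21 inhibitor of cyclin-dependent kinases, was at 63.1, 63.3 and 65.1 rescaled FPKM in the GA+H/R libraries, 77.1, 74.8 and 76.3 in the H/R libraries and 31.9, 30.6 and 27.8 in the controls. The 3 groups did not overlap, with H/R the highest, and H/R was above control by 1.31 ± 0.07 on the log2 scale (adjusted p = 7.21e-07). As deposited, CDKN1A was at 26.6, 26.9 and 27.5 FPKM in GA+H/R, 51.6, 50.2 and 51.3 in H/R and 62.7, 55.5 and 49.02 in control, where H/R and control overlapped (-0.12, adjusted p = 0.245). PLK2, a polo-like kinase induced by p53, was at 31.2, 27.6 and 30.3 rescaled FPKM in GA+H/R, 60.1, 60.995 and 72.1 in H/R and 34.7, 34.4 and 30.5 in control. Only the H/R libraries stood high, at 0.93 ± 0.10 above control (adjusted p = 5.04e-05, and -0.50 on the deposited scale), and the GA+H/R and control libraries overlapped.

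GADD45A, a growth arrest and DNA damage protein, was at 13.2, 14.1 and 14.9 rescaled FPKM in GA+H/R, 10.4 to 11.1 in H/R and 7.01, 5.67 and 5.05 in control. It was higher in every H/R library than in every control (0.78 ± 0.12, adjusted p = 4.18e-04, -0.52 on the deposited scale). BTG2, an antiproliferative transcriptional cofactor, was at 41.2, 34.0 and 33.3 in GA+H/R, 69.8, 70.7 and 72.0 in H/R and 47.5, 64.3 and 58.9 in control. Its rise in H/R was small (0.32 ± 0.12, adjusted p = 0.0473, -1.12 on the deposited scale) and was not called without control 1 (0.21, adjusted p = 0.0867), nor without control 3, any one H/R library, GA+H/R 2 or GA+H/R 3 (adjusted p = 0.0559 to 0.117).

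The negative regulators of p53 did not move together relative to the median locus, though neither call held under all alternatives. On the deposited scale both were lower, MDM2 at -1.77 and CCNG1 at -1.31. MDM2, the ubiquitin ligase that degrades p53, was at 199, 198 and 204 rescaled FPKM in GA+H/R, 194, 205 and 199 in H/R and 288, 241 and 222 in control. Every H/R library lay below every control (-0.32 ± 0.09, adjusted p = 0.0126, and -0.20 without control 1, adjusted p = 0.00759), a call that ended after quantile normalization (-0.09, adjusted p = 0.425). CCNG1, cyclin G1, which takes part in p53 feedback through MDM2, was at 3266, 3229.6 and 3229.8 in GA+H/R, 1994, 1974 and 1969 in H/R and 1783, 1913 and 1666 in control. H/R exceeded control by 0.15 ± 0.05 (adjusted p = 0.0340), and 12 of 18 alternatives ended this call or turned its direction, among them the fits without control 3, without any one H/R library and without any one GA+H/R library (adjusted p = 0.0603 to 0.103).

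Of the p53 targets that promote death by other means, PHLDA3 rose and TP53INP1 and ZMAT3 fell. PHLDA3, an inhibitor of AKT, was at 148, 137 and 148 rescaled FPKM in GA+H/R, 142, 124 and 142 in H/R and 55.8, 62.8 and 59.4 in control, so that all H/R libraries lay far above the controls (1.18 ± 0.08, adjusted p = 2.55e-06, -0.26 on the deposited scale). TP53INP1, a nuclear and autophagy protein that enhances p53 activity, was at 33.4, 31.7 and 31.2 in GA+H/R, 36.6, 37.4 and 38.6 in H/R and 66.9, 59.9 and 63.1 in control (-0.74 ± 0.07, adjusted p = 2.99e-05). ZMAT3, a zinc finger RNA-binding protein, was at 453, 475 and 464 in GA+H/R, 368, 377 and 417 in H/R and 818, 619.6 and 547 in control (-0.75 ± 0.13, adjusted p = 0.00101). For both, every H/R library was below every control.

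The repair and sestrin genes were mostly lower or not called. RRM2B, the p53-inducible subunit of ribonucleotide reductase, was at 24.9, 26.5 and 24.3 rescaled FPKM in GA+H/R, 25.4, 27.8 and 25.6 in H/R and 44.4, 42.6 and 38.8 in control, and fell in H/R by 0.66 ± 0.08 on the log2 scale (adjusted p = 1.53e-04). XPC and DDB2, which recognise damaged DNA for nucleotide excision repair, were at 0.17 ± 0.11 (adjusted p = 0.192, and 0.28, adjusted p = 0.0277, without control 1) and 0.32 ± 0.12 (adjusted p = 0.0511, and 0.0275 and 0.0217 without GA+H/R 1 or GA+H/R 2). SESN1, a stress-inducible inhibitor of mTORC1 signalling, was at 17.0, 20.9 and 18.9 in GA+H/R, 21.4, 21.0 and 25.1 in H/R and 26.6, 31.2 and 32.9 in control (-0.41 ± 0.12, adjusted p = 0.0149), with the call lost without control 2, control 3 or H/R 2 (adjusted p = 0.0572, 0.0648 and 0.0532). SESN2, its relative that also answers ATF4 and NRF2, was at 293, 319 and 278 in GA+H/R, 318, 319 and 339 in H/R and 441, 258 and 243 in control. Control 1 lay far above the other controls, and the change in H/R was 0.11 ± 0.19 (adjusted p = 0.665) with it and 0.39 (adjusted p = 7.96e-04) without it.

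**Figure D2:**
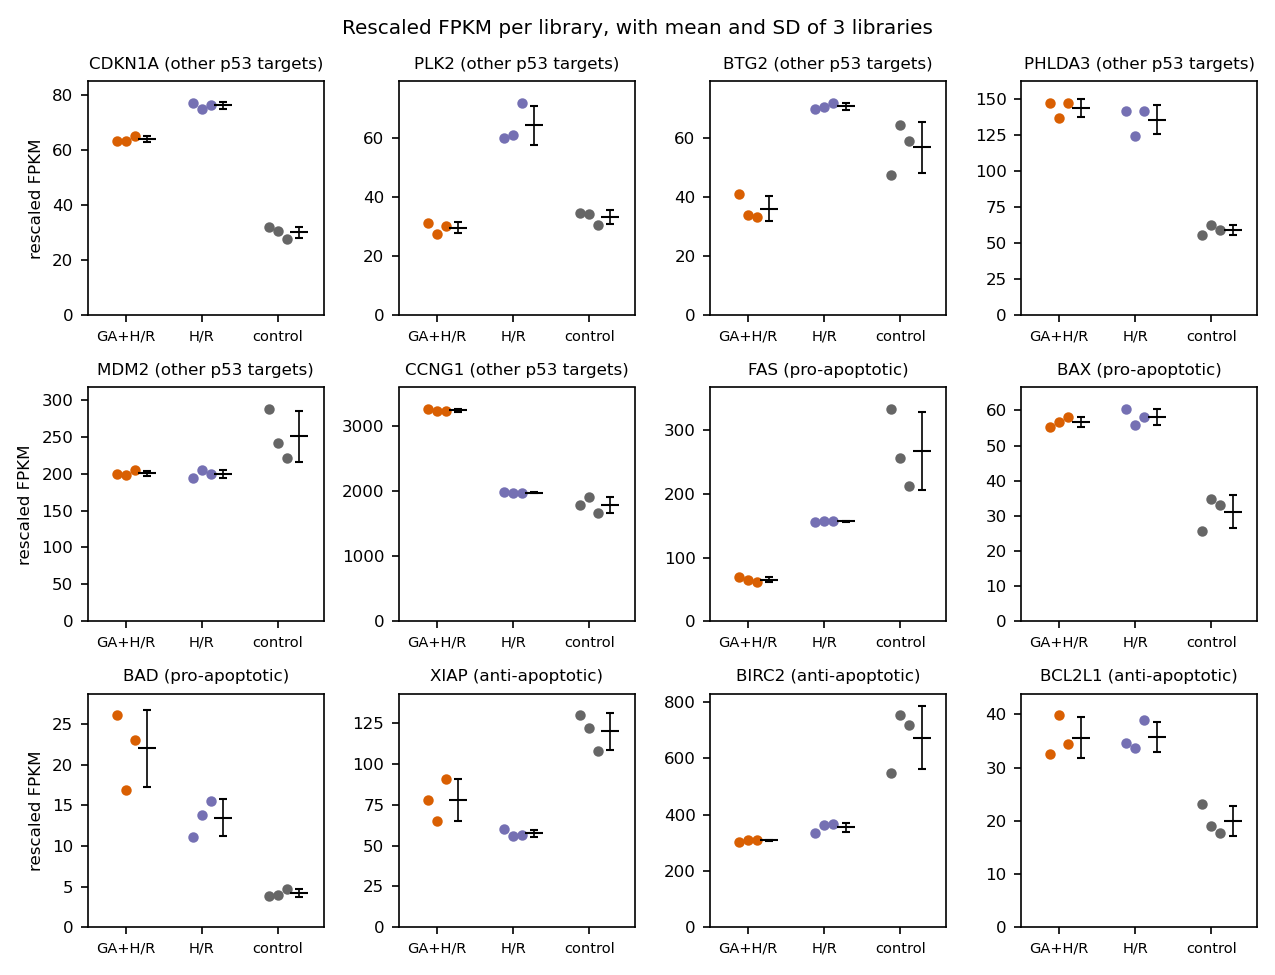
Rescaled FPKM of 12 genes in each library (points) by group, with the mean and SD of 3 libraries in black beside them. CDKN1A, PHLDA3, BAX and BCL2L1 were lowest in control, XIAP, BIRC2 and FAS were highest in control, and PLK2 and BTG2 were highest in H/R, all on the rescaled axis.

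Both tested genes of the death receptor route were called lower in H/R, as were 28.4% of all loci tested. FAS, the receptor of the FAS ligand and a p53 target, was at 70.2, 64.4 and 62.3 rescaled FPKM in GA+H/R, 157, 157 and 158 in H/R and 334, 257 and 213 in control. The groups formed 3 separate steps, and H/R was below control by 0.74 ± 0.14 on the log2 scale (a change of -0.74, adjusted p = 0.00169). FADD, the adaptor between FAS and caspase 8, was at 16.1, 18.4 and 21.7 in GA+H/R, 15.1, 21.0 and 19.6 in H/R and 25.4, 27.2 and 27.2 in control (-0.51 ± 0.14, adjusted p = 0.0127), so that both stressed groups lay below every control.

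The pore-forming effectors rose in H/R relative to the median locus and were lower on the deposited scale. BAX was at 55.4, 56.8 and 58.1 rescaled FPKM in GA+H/R, 60.5, 55.9 and 58.0 in H/R and 25.8, 34.7 and 33.0 in control, a change in H/R of 0.89 ± 0.11 (adjusted p = 1.23e-04, -0.54 on the deposited scale). BAK1 was at 69.8, 63.9 and 77.9 in GA+H/R, 64.3, 63.5 and 58.6 in H/R and 30.2, 27.9 and 28.5 in control (1.08 ± 0.09, adjusted p = 1.03e-05, -0.35 on the deposited scale). For both genes the GA+H/R and H/R libraries overlapped, and all 6 lay above the controls.

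Among BH3-only genes, BAD had the largest change of the tested set. It was at 26.1, 16.8 and 23.0 rescaled FPKM in GA+H/R, 11.1, 13.8 and 15.5 in H/R and 3.89, 4.0003 and 4.74 in control, in 3 separate steps (1.47 ± 0.18 in H/R, adjusted p = 1.20e-04). On the deposited scale its groups overlapped (0.19, adjusted p = 0.293). BBC3 (PUMA), a p53 target that binds all BCL2-type guardians, was low at 1.83, 2.61 and 2.10 in GA+H/R, 2.41, 1.39 and 3.21 in H/R and 1.70, 1.39 and 1.23 in control, with H/R and control overlapping. It was not called in any comparison with all libraries (0.42 ± 0.20 in H/R, adjusted p = 0.107), and was called in H/R without H/R 2 (0.65, adjusted p = 0.0126).

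The BCL2-type guardians split. MCL1, a short-lived guardian, was at 282, 249 and 274 rescaled FPKM in GA+H/R, 289, 295 and 296 in H/R and 453, 424 and 417 in control (-0.55 ± 0.06, adjusted p = 6.34e-05, and -0.31 after quantile normalization), and every control was above both other groups. BCL2 was at 4.78, 3.99 and 5.30 in GA+H/R, 4.94, 5.01 and 3.98 in H/R and 5.38, 8.78 and 8.501 in control (-0.58 ± 0.18, adjusted p = 0.0214). Control 1 was close to the H/R libraries, and the call was lost without control 2, control 3 or H/R 3 (adjusted p = 0.0858, 0.0811 and 0.0741). BCL2L1 (BCL-XL) was at 32.5, 39.9 and 34.5 in GA+H/R, 34.7, 33.6 and 38.9 in H/R and 23.1, 19.0 and 17.8 in control, and rose in H/R (0.81 ± 0.12, adjusted p = 4.32e-04, -0.59 on the deposited scale).

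A ratio of genes within a library does not depend on a single scale factor per library, and the ratios of BAX to the guardians are given as a description. The log2 ratio of BAX to BCL2 was 3.61 ± 0.198 in GA+H/R, 3.65 ± 0.197 in H/R and 2.07 ± 0.169 in control (SD, n = 3). That of BAX to MCL1 was -2.24 ± 0.107, -2.34 ± 0.0708 and -3.80 ± 0.289 in the same order of groups. In both, all 3 controls lay below the other 6 libraries, by a mean difference of 1.59 and 1.46 for H/R minus control, while GA+H/R minus H/R was -0.05 and 0.10. The log2 ratio of BAX to BCL2L1 was 0.67 ± 0.146, 0.70 ± 0.116 and 0.64 ± 0.418 in GA+H/R, H/R and control, with control 1 at 0.16 and the groups overlapping. FPKM of different genes need not share a common scale in this table, so only the differences of a ratio between groups are read. A shift linked to transcript length would stay in such a ratio. Short and long housekeeping transcripts had medians of 1.13 and -0.46 in H/R minus control, and the part of length in the ratios was not tested.

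**Figure D3:**
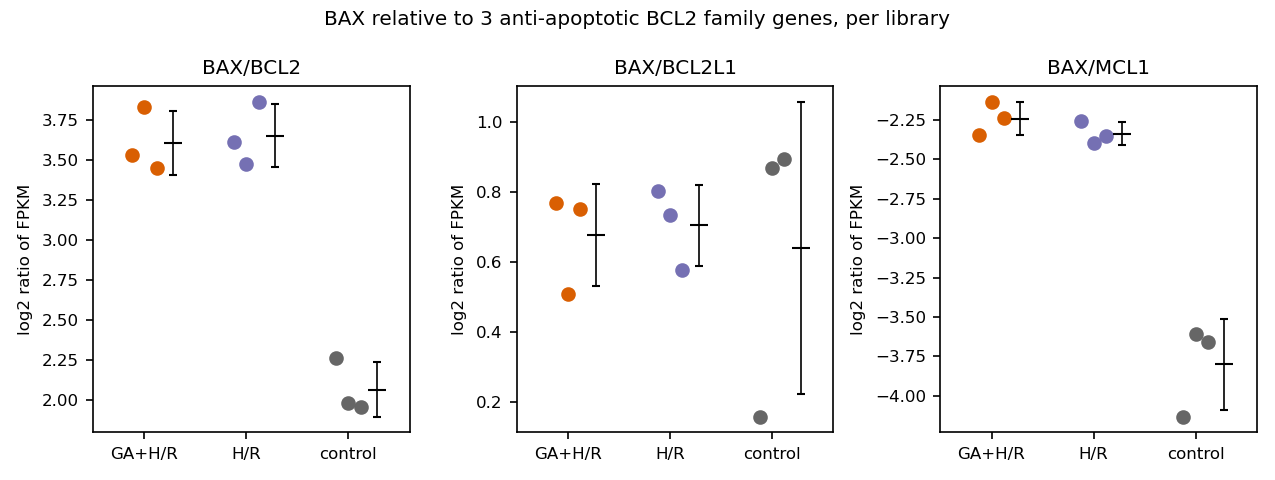
Log2 ratio of BAX to BCL2, BCL2L1 and MCL1 (vertical axes, not starting at 0) in each library, with the mean and SD of 3 libraries in black. The controls lie below the other groups for BAX/BCL2 and BAX/MCL1, and overlap them for BAX/BCL2L1.

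Among caspases and their regulators, the inhibitors fell and DIABLO rose relative to the median locus. XIAP, which binds and blocks caspases directly, was at 77.7, 65.0 and 90.97 rescaled FPKM in GA+H/R, 60.1, 55.8 and 56.2 in H/R and 129.9, 122 and 108 in control. H/R was the lowest group and lay below control by 1.04 ± 0.12 on the log2 scale (a change of -1.04, adjusted p = 9.88e-05). BIRC2 (cIAP1), a ubiquitin ligase of TNF receptor signalling, was at 304, 309.6 and 311 in GA+H/R, 335, 362 and 366 in H/R and 547, 754 and 718 in control (-0.91 ± 0.11, adjusted p = 1.20e-04). BIRC3 (cIAP2), its relative, was at 13.1, 12.7 and 12.5 in GA+H/R, 16.6, 16.9 and 16.2 in H/R and 21.1, 22.3 and 19.9 in control (-0.33 ± 0.08, adjusted p = 0.00608). All 3 inhibitors were below every control in both stressed groups. Such a separation from the controls was met for 33.0% of all loci tested with the H/R libraries. With the GA+H/R libraries it was met for 36.5%, and the share that met both is not given here.

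DIABLO (SMAC), the mitochondrial protein that displaces XIAP, was at 5.95, 6.25 and 8.49 rescaled FPKM in GA+H/R, 5.44, 6.55 and 6.80 in H/R and 2.78, 2.91 and 3.05 in control (0.89 ± 0.14, adjusted p = 5.78e-04, -0.30 on the deposited scale). CASP2, an initiator caspase activated by the PIDDosome, was lower in H/R (-0.41 ± 0.10, adjusted p = 0.00670). CASP9, the initiator caspase of the apoptosome, was at 16.6, 11.2 and 14.3 in GA+H/R, 9.52, 9.82 and 11.2 in H/R and 8.02, 8.52 and 9.84 in control, with H/R and control overlapping (0.19 ± 0.15, adjusted p = 0.290). CASP6, an executioner caspase, was at -0.16 ± 0.16 (adjusted p = 0.426), and at -0.34 (adjusted p = 0.0154) without control 1, where it was at 56.0 against 82.4 and 87.6 in the other controls. The joined locus APAF1;LOC100351148 was at 157, 143 and 136 in GA+H/R, 140.1, 135 and 141 in H/R and 185, 219 and 243 in control (-0.62, adjusted p = 6.69e-04).

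Counted by class, 6 of 14 tested p53 targets without a death-machinery role were higher in H/R and 5 lower (median 0.16), 4 of 10 pro-apoptotic genes higher and 3 lower (median 0.30), and 1 of 6 anti-apoptotic genes higher and 5 lower (median -0.57). Of all loci tested, 29.2% were higher and 28.4% lower. Without control 1, 12 of the 30 genes were called higher and 14 lower, where 30.9% and 28.5% of all loci were. Of the 11 higher calls 9 held without each library in turn, and of the 13 lower calls 11 did. For all loci the share of calls that held so is not given here. Short and long housekeeping transcripts moved apart in the same libraries. Of 22 tested short housekeeping transcripts 21 rose and 0 fell, with a median of 1.13 (-0.17 on the deposited scale), and of 24 long ones 0 rose and 20 fell, with a median of -0.46. Lengths of the members' transcripts are not given in the sources used here, and the part of length in the result was not tested. Fibroblast markers summed to 45174 to 45378 rescaled FPKM in H/R and 68158 to 109222 in control, and in bulk RNA fewer cells of a type and less RNA per cell cannot be told apart.

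Other genes of the pathway, from lists that share no gene with the set, divided in the same comparison. Of 26 tested genes of the p53 pathway outside the set, 8 were higher and 6 lower (median 0.04), where 29.2% and 28.4% of all loci were. The largest called changes were those of ATF3, a stress transcription factor (1.83, and 0.46 on the deposited scale), PLK3, a polo-like kinase (1.53, and 0.39 on the deposited scale), NINJ1, a membrane protein of lytic cell rupture (1.19, and -0.19 on the deposited scale), and SESN3, the third sestrin (-1.11). Of 17 other pro-apoptotic genes 5 were higher and 1 lower (median 0.09), led by the BAX relative BOK (1.07), the mitophagy receptor BNIP3 (0.88, and 0.53 without control 1), the mitochondrial protease HTRA2 (0.69) and CASP10, a receptor-linked caspase (-0.45), the 3 rises being -0.04, -0.57 and -0.61 on the deposited scale. Of 8 other anti-apoptotic genes 3 were higher and 3 lower (median -0.09), led by BCL2A1, a BCL2 relative (1.11, and 0.25 on the deposited scale), BIRC6, a giant inhibitor of apoptosis (-0.93), the chaperone cofactor BAG1 (0.90, and -0.55 on the deposited scale) and DFFA, the inhibitor of the DNA-cleaving nuclease (0.69, and -0.57 on the deposited scale). The call of DFFA (adjusted p = 0.0447) was lost without control 2, control 3, H/R 1, H/R 3 or GA+H/R 1 (adjusted p = 0.0597 to 0.140).

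The GA+H/R libraries were then set against H/R. Whether the H/R cells were also held for 24 h is not labelled, so gallic acid and that time cannot be told apart. The death receptor FAS and the arrest genes PLK2 and BTG2 fell, on the deposited scale too, and the caspase regulator BIRC3 fell by less. CCNG1 rose, with 0.05 on the deposited scale. BAX, BAK1, DIABLO, BCL2 and BCL2L1 were not called. Of the 30 genes 11 were called, where 33.9% of all loci were, with 4 higher and 7 lower against 18.7% and 15.2% of all loci, and a median of -0.02 against 0.00 for all loci. The libraries did not overlap for 7 genes higher in GA+H/R and 10 lower, as for 27.4% and 24.5% of all loci. On the deposited scale 0 were called higher and 24 lower, where 1.69% and 64.3% of all loci were.

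FAS averaged 65.6 ± 4.08 rescaled FPKM in GA+H/R and 157 ± 0.352 in H/R (SD, n = 3), and its change was -1.25 ± 0.14 on the log2 scale (adjusted p = 2.94e-04, -1.89 on the deposited scale). Only 0.785% of all loci tested had a lower change. As deposited, FAS was at 29.6, 27.3 and 26.4 FPKM in GA+H/R and 105.1, 105.4 and 105.8 in H/R, against 656, 466 and 376 in control. PLK2 averaged 29.7 ± 1.87 in GA+H/R and 64.4 ± 6.66 in H/R (-1.09 ± 0.10, adjusted p = 8.51e-05, -1.70 deposited), with 1.54% of loci below it. BTG2 averaged 36.2 ± 4.34 in GA+H/R and 70.8 ± 1.12 in H/R (-0.96 ± 0.12, adjusted p = 5.71e-04, -1.58 deposited), with 2.44% of loci below it. In all 3 genes every GA+H/R library lay below every H/R library by a wide margin.

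CCNG1 averaged 3242 ± 20.9 rescaled FPKM in GA+H/R and 1979 ± 13.1 in H/R (0.71 ± 0.05, adjusted p = 2.79e-05, and 0.34 after quantile normalization), above 94.5% of loci. BIRC3 averaged 12.7 ± 0.298 in GA+H/R and 16.5 ± 0.346 in H/R (-0.35 ± 0.08, adjusted p = 0.00898). These 2 and the 3 above were the 5 calls that held without each library in turn. The other 6 calls were lost without at least one library. How many calls among all loci held so is not given here.

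For BAD all GA+H/R libraries lay above all H/R libraries (0.66 ± 0.18, adjusted p = 0.0193, 0.03 on the deposited scale), and its call was lost without H/R 1, GA+H/R 1 or GA+H/R 3 (adjusted p = 0.0696, 0.0593 and 0.0556). XIAP was likewise higher in every GA+H/R library (0.42 ± 0.12, adjusted p = 0.0261, -0.23 on the deposited scale), with the call lost without any one H/R library, GA+H/R 1 or GA+H/R 3 (adjusted p = 0.0504 to 0.0779). The rise of GADD45A (0.35 ± 0.12, adjusted p = 0.0456, -0.25 on the deposited scale) was lost without control 2, any one H/R library or any one GA+H/R library (adjusted p = 0.0576 to 0.122). Thus the calls of the 3 smaller rises were lost in fits with 1 library fewer, and so were those of 3 small falls. The changes kept their direction in those fits. XPC was lower by 0.37 on the log2 scale (-0.37 ± 0.11, adjusted p = 0.0246), a call lost without any one H/R library, GA+H/R 1 or GA+H/R 3 (adjusted p = 0.0513 to 0.0861). CDKN1A was lower in every GA+H/R library (-0.25 ± 0.07, adjusted p = 0.0226), a call lost without any one H/R library, GA+H/R 1 or GA+H/R 2 (adjusted p = 0.0570 to 0.0787). TP53INP1 was lower too (-0.22 ± 0.07, adjusted p = 0.0409), a call lost without control 3, any one H/R library or any one GA+H/R library (adjusted p = 0.05001 to 0.125).

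**Figure D4:**
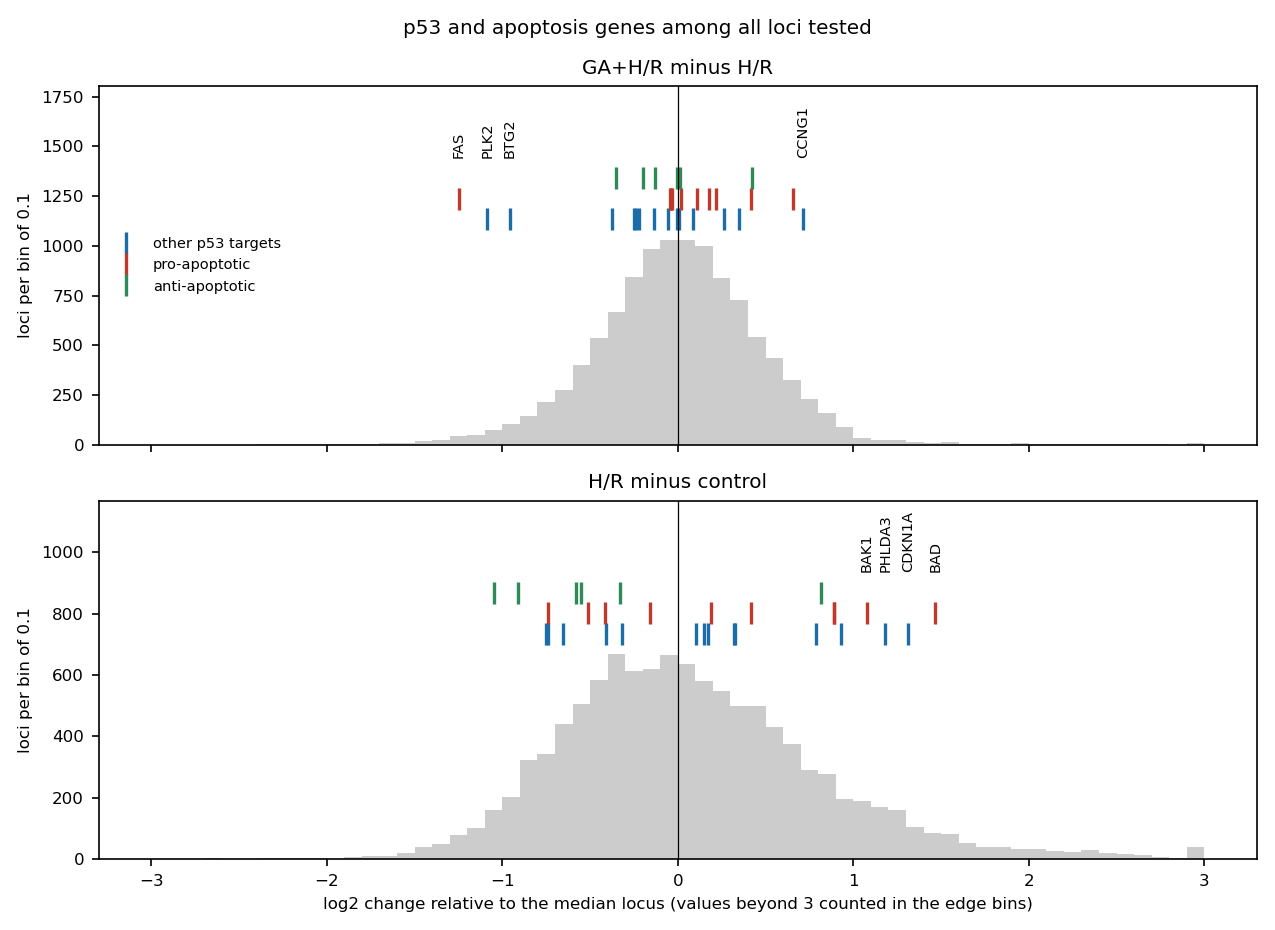
Number of loci per bin of 0.1 of log2 change relative to the median locus (grey), with the 30 genes as coloured ticks above, for GA+H/R minus H/R (top) and H/R minus control (bottom). The 4 genes of the largest change are named in each panel, and FAS, PLK2 and BTG2 lie in the lower tail of the upper panel, at -1.25, -1.09 and -0.96.

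The effectors and guardians lay close to the middle of this distribution. BAX was at -0.03 ± 0.11 (adjusted p = 0.829), BAK1 at 0.18 ± 0.09 (adjusted p = 0.146), BCL2 at 0.01 ± 0.18 (adjusted p = 0.971), BCL2L1 at -0.01 ± 0.12 (adjusted p = 0.975) and MDM2 at 0.01 ± 0.09 (adjusted p = 0.956). MCL1 was at -0.13 ± 0.06 (adjusted p = 0.126) and BIRC2 at -0.20 ± 0.11 (adjusted p = 0.187). Without control 1 the changes were nearly the same with smaller standard errors, and MCL1 (adjusted p = 0.0425), BIRC2 (0.00459), ZMAT3 (0.00999) and CASP9 (0.0487) were called. CASP9 was at 0.41 ± 0.15 with all libraries (adjusted p = 0.0552, -0.18 on the deposited scale) and at 0.57 (adjusted p = 0.0145) without GA+H/R 2, its lowest GA+H/R library, which was level with the highest H/R library. DIABLO was at 0.11 ± 0.14 (adjusted p = 0.563).

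By class, 2 of 14 p53 targets without a death-machinery role were higher and 5 lower (median -0.09), 1 of 10 pro-apoptotic genes higher and 1 lower (median 0.06), and 1 of 6 anti-apoptotic genes higher and 1 lower (median -0.07). Of all loci tested, 18.7% were higher and 15.2% lower. The count of 11 calls was 15 without control 1, where 43.0% of all loci were called. It was 5 without H/R 1 or GA+H/R 1 (25.3% and 29.5% of all loci), and 6 without H/R 2, H/R 3 or GA+H/R 3 (24.8%, 25.3% and 29.2% of all loci), so that the share of all loci moved in the same direction. Short housekeeping transcripts had 18 of 22 rising and 0 falling (median 0.58, -0.08 on the deposited scale), and long ones 0 of 24 rising and 16 falling (median -0.38), and the part of length in these calls was not tested. Macrophage markers also moved, all 6 tested having risen, with the listed markers summing to 343 to 360 rescaled FPKM in GA+H/R and 29.2 to 34.1 in H/R, against 2.49 to 43.1 in control. CD14 and FCER1G passed the filter through the GA+H/R libraries alone, and CD74 was listed at 0 in all of them. Fibroblast markers had 1 of 10 rising and 5 falling, and summed to 33561 to 33983 in GA+H/R and 45174 to 45378 in H/R. The part of these cells in the calls above was not tested.

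In the same comparison, 5 of 26 other genes of the p53 pathway were higher and 7 lower (median -0.19), where 18.7% and 15.2% of all loci were. PLK3 (-0.90), TRIAP1, a mitochondrial inhibitor of apoptosis (0.84, and 0.18 on the deposited scale), and SUSD6, a membrane protein induced by p53 (-0.80), were among those called. Of 17 other pro-apoptotic genes 2 were higher and 3 lower (median 0.01). TNFRSF1A, the main TNF receptor, fell by 0.73 on the log2 scale and BMF, a BH3-only protein, by 0.65, while the adaptor TRADD (0.58) and DAP3 (0.56), a mitochondrial ribosomal protein, rose, both being negative on the deposited scale (-0.05 and -0.08). The call of BMF (adjusted p = 0.0341) was lost without any one H/R library, GA+H/R 2 or GA+H/R 3 (adjusted p = 0.0678 to 0.0998), and that of DAP3 (adjusted p = 0.0231) without H/R 1, H/R 2, GA+H/R 1 or GA+H/R 2 (adjusted p = 0.0570 to 0.0762). Of 8 other anti-apoptotic genes 4 were higher and 1 lower (median 0.10).

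BCL2A1, a BCL2 relative known from leukocytes, was at 8.31, 6.91 and 11.7 rescaled FPKM in GA+H/R, 3.05, 3.22 and 2.45 in H/R and 0.450, 1.18 and 0.867 in control, in 3 separate steps. It rose by 1.33 ± 0.21 in GA+H/R against H/R (adjusted p = 0.00152), by 0.69 on the deposited scale. CFLAR (FLIP), which blocks caspase 8 at death receptors, was at 112, 99.5 and 106 in GA+H/R and 72.3, 61.3 and 72.1 in H/R (0.62 ± 0.09, -0.03 on the deposited scale). BAG1 was higher by 0.58 (-0.08 on the deposited scale) and BAG3, another chaperone cofactor, lower by 0.51, a change of -0.51.

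The comparison of GA+H/R with control shares its libraries with both others, and asks how pretreated and stressed cells stood against untreated ones. Here too, treatment and time in culture cannot be told apart. Of the 30 genes 25 were called, where 69.2% of all loci were, with 11 higher and 14 lower against 33.7% and 35.5% of all loci, and a median of -0.18 against -0.05 for all loci. The libraries did not overlap for 12 genes higher in GA+H/R and 14 lower, as for 35.0% and 36.5% of all loci. BAD (2.12 ± 0.18), PHLDA3 (1.27 ± 0.08), BAK1 (1.26 ± 0.09), GADD45A (1.13 ± 0.12), CDKN1A (1.06 ± 0.07), DIABLO (0.999 ± 0.14), CCNG1 (0.86 ± 0.05), BAX (0.85 ± 0.11), BCL2L1 (0.81 ± 0.12), CASP9 (0.60 ± 0.15) and DDB2 (0.32 ± 0.12) were higher, all but BAD (0.22) at negative values on the deposited scale, where 0 of 30 were called higher and 29 lower (4.10% and 90.1% of all loci). The call of CASP9 ended at equal sums of FPKM (0.26, adjusted p = 0.0868). The call of DDB2 (adjusted p = 0.0474) was lost under 14 of 18 alternatives, 8 of the 9 that leave out 1 library among them (0.20 without GA+H/R 1, and the call kept only without GA+H/R 2).

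FAS had the largest fall from control, at -1.99 ± 0.14 (adjusted p = 2.20e-06), and 0.885% of loci lay below it. BIRC2 (-1.11 ± 0.11), TP53INP1 (-0.96 ± 0.07), RRM2B (-0.71 ± 0.08), BIRC3 (-0.68 ± 0.08), MCL1 (-0.68 ± 0.06), SESN1 (-0.65 ± 0.12), BTG2 (-0.63 ± 0.12), XIAP (-0.62 ± 0.12), BCL2 (-0.57 ± 0.18), ZMAT3 (-0.49 ± 0.13, and -0.32 without control 1), FADD (-0.49 ± 0.14), CASP2 (-0.46 ± 0.10) and MDM2 (-0.31 ± 0.09, and -0.20 without control 1) were lower too. The call of BCL2 was lost without control 2, control 3 or GA+H/R 2 (adjusted p = 0.0736, 0.0715 and 0.0652), and those of ZMAT3 (-0.44, adjusted p = 0.0794) and MDM2 (-0.16, adjusted p = 0.161) after quantile normalization. PLK2 was not called (-0.15 ± 0.10, adjusted p = 0.184), but was at equal sums of FPKM (-0.52, adjusted p = 0.00231). XPC was not called either (-0.20 ± 0.11), but was at equal sums (-0.55, adjusted p = 0.00681) and after quantile normalization (-0.33, adjusted p = 0.0216). Not called were also BBC3 (0.38 ± 0.20, adjusted p = 0.126, and 0.0471 without H/R 2), CASP6 (0.06 ± 0.16, -2.03 on the deposited scale) and SESN2, which was at -0.03 ± 0.19 (adjusted p = 0.893) and at 0.25 (adjusted p = 0.00680) without control 1. By class, 5 of 14 p53 targets without a death-machinery role were higher and 6 lower, 5 of 10 pro-apoptotic genes higher and 3 lower, and 1 of 6 anti-apoptotic genes higher and 5 lower, with medians of -0.18, 0.49 and -0.65. Of all loci tested, 33.7% were higher and 35.5% lower. Short and long housekeeping transcripts had medians of 1.57 (-0.22 on the deposited scale) and -0.91, with 21 of 22 short ones higher and 23 of 24 long ones lower. All 6 tested macrophage markers were higher (median 3.31), the list summing to 343 to 360 rescaled FPKM in GA+H/R and 2.49 to 43.1 in control. CD14 and FCER1G are among the 6 and passed the filter through the GA+H/R libraries alone, so their direction was fixed by it. Of 10 fibroblast markers 2 were higher and 8 lower (median -1.66), the list summing to 33561 to 33983 in GA+H/R and 68158 to 109222 in control. The part of transcript length and of these cells in the changes was not tested.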

How the data were processed

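RNA sequencing of 9 libraries was read from a single deposited table. It holds FPKM, named so per the file headers and calculated by the authors, and the p-value and q-value columns, deposited by the authors for a test of all 3 groups at once, serve only for the count of marked genes. Which aligner and quantification tool were run, in which versions and with what scaling between libraries, is not given in the sources used here, and the submitters' processing notes name mouse builds, whereas the table lists rabbit transcripts, so no coordinates are given. Per the labels' protocols, libraries were made from total RNA.

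From the deposited FPKM, a scale was set per library, the median over loci (at 1 FPKM or more in all 9) of their ratio to the arithmetic mean library, and its values were divided by it. Loci reaching 1 in 3 or more libraries entered limma 3.58.1 (R 4.3.3) as log2(rescaled FPKM + 1), with a mean per group over all 9 libraries and eBayes with trend and robust settings. Two-sided p-values received the Benjamini-Hochberg adjustment across every locus tested. The fit was run on simulated data in which only a small part of the loci changed. That simulation cannot speak for the choice of scale, since 57.6% of loci were called in H/R against control. Genes printed by library were those called with a change of at least 0.5, with CDKN1A, MDM2, BAX and BCL2. SESN2 and BBC3 were added after their values were seen. Up to 4 genes of each other list were named by size of change among those called; some genes of these lists are not reported here. Members, lists and the choice of scale were made with earlier results of these data known. In 18 alternatives per comparison, 1 choice was changed at a time.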

Additional observations from a re-analysis of the deposited data

How the results depend on the processing

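Each result was recomputed under 18 alternatives per comparison. On the deposited FPKM without rescaling, these log2 changes turned negative. In H/R minus control they were CCNG1 at -1.31, CDKN1A at -0.12, GADD45A at -0.52, BTG2 at -1.12, PLK2 at -0.50, PHLDA3 at -0.26, SESN2 at -1.35, XPC at -1.22, DDB2 at -0.97, BBC3 at -0.53, BAX at -0.54, BAK1 at -0.35, CASP9 at -1.14, DIABLO at -0.30, BCL2L1 at -0.59, NINJ1 at -0.19, BOK at -0.044, BNIP3 at -0.57, HTRA2 at -0.61, BAG1 at -0.55 and DFFA at -0.57. In GA+H/R minus H/R they were MDM2 at -0.65, GADD45A at -0.25, PHLDA3 at -0.57, ZMAT3 at -0.40, FADD at -0.59, BAK1 at -0.47, CASP6 at -0.44, DIABLO at -0.42, BCL2 at -0.46, XIAP at -0.23, TRADD at -0.046, DAP3 at -0.084, BAG1 at -0.085 and CFLAR at -0.035. In GA+H/R minus control they were CCNG1 at -1.26, CDKN1A at -1.01, GADD45A at -0.77, PHLDA3 at -0.83, DDB2 at -1.51, BBC3 at -0.93, BAX at -1.22, BAK1 at -0.82, CASP9 at -1.32, CASP6 at -2.03, DIABLO at -0.71 and BCL2L1 at -1.23. At equal sums of FPKM, CCNG1 in H/R minus control (-0.14) and DDB2 in GA+H/R minus control (-0.012) turned. With the main scaling, SESN2 in GA+H/R minus control turned to 0.25 without control 1 (range over libraries left out -0.18 to 0.25). Calls that ended at equal sums were, in H/R minus control, BTG2 (0.04) and DFFA (0.44) and, in GA+H/R minus H/R, GADD45A (0.27), TP53INP1 (-0.30), XIAP (0.34) and DAP3 (0.47), while CASP6 in H/R minus control (-0.44) and BIRC2 in GA+H/R minus H/R (-0.28) became calls. Quantile normalization ended those of GADD45A in GA+H/R minus H/R (0.33), DFFA in H/R minus control (0.54) and DDB2 in GA+H/R minus control (0.14). Without the filter, GADD45A, XIAP and BMF in GA+H/R minus H/R, BTG2 and DFFA in H/R minus control and DDB2 in GA+H/R minus control were not called. BCL2A1 in H/R minus control was at 1.76 with a pseudocount of 0.1.

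On the deposited scale, 460 loci were called higher and 9462 lower in H/R against control (9922 in all), 186 and 7069 in GA+H/R against H/R (7255 in all), and 451 and 9906 in GA+H/R against control. There 0 members were higher in each comparison and 29, 24 and 30 lower, BCL2L11 passing the filter as well, and the called members in GA+H/R against H/R were 12 p53 targets, 7 pro-apoptotic and 5 anti-apoptotic genes, 24 in all. Equal sums gave 2088 loci higher in H/R against control, and 1342 loci and 2 members higher in GA+H/R against H/R. With no filter, 2 members were higher and 1 anti-apoptotic gene was called in GA+H/R against H/R. As the share of all loci called with no filter is not given here, these counts are not read as a result about the members. Leaving out 1 library at a time, the same comparison called 5 to 15 members, 1 to 6 higher and 4 to 9 lower, with 3 to 8 p53 targets, 1 to 3 pro-apoptotic and 1 to 4 anti-apoptotic genes. In those fits 24.8% to 43.0% of all loci were called. The deposited scale differs by its own construction, and for the others the cause was not tested.

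Libraries share replicate numbers, and same-numbered deviations from group means correlated at only -0.0177 to 0.0261. No shared effect of the number was seen, but this cannot tell whether same-numbered libraries came from the same animal or culture. With replicate number as a block, 4 p53 targets and 8 members were called in GA+H/R against H/R, 22 members in H/R against control and 24 in GA+H/R against control. The share of all loci called under the block is not given here, so these counts are not read as a result about the members. Read depth is unknown, so the counting error of low genes such as BBC3 and BCL2 cannot be given.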
